A study of Mus musculus with 10 samples.

Results

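Lgals1, Lgals3, S100a4, S100a6, S100a10, S100a11, Anxa1, Anxa2, Anxa5 and Capg encode galectins, S100 proteins, annexins and an actin-capping protein that effector lymphocytes and myeloid cells are known to express. These 10 genes were taken by symbol, with earlier results of these data known, from the 45706 genes of a table of TPM (transcript abundance per length, with equal totals for all libraries). The libraries came from spleen T cells and from spleen type 2 conventional dendritic cells (cDC2s, which present antigen to T cells and bear SIRP alpha, the receptor for CD47). Each cell type was taken from Cd47ΔT mice, where the genotype's name places the loss of Cd47 in T cells, and from Cd47f/f mice, which carry floxed Cd47. There were 2 T cell libraries and 3 cDC2 libraries per genotype. The sources used here do not state the Cre line, the deleted exons, the age of the mice, how cells were isolated or whether replicates came from separate animals. The p-values below therefore measure only library-to-library spread, part or all of which may be technical.

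Galectins are lectins that bind beta-galactoside sugars on cell surface glycoproteins and can tune T cell activation and survival. S100 proteins are small EF-hand proteins, most of which change shape on binding calcium and then hold partner proteins. Annexins bind membranes rich in acidic phospholipids when calcium is present, and several pair with an S100 protein, S100A10 with annexin A2 and S100A11 with annexin A1 among them. CapG belongs to the gelsolin family and caps the barbed ends of actin filaments. CD47 marks a cell as one that phagocytes should not take up.

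Cd47 stood at 40.4 and 51.7 TPM in Cd47ΔT T cells, against 138 and 233 TPM in Cd47f/f T cells. Between 11514 and 12594 genes reached 1 TPM per T cell library, and between 11852 and 12146 per cDC2 library. Sequencing depth cannot be read from TPM and is unknown here. Small noncoding RNAs took 0.245% and 0.456% of TPM in Cd47ΔT T cell libraries and 0.124% and 0.160% in Cd47f/f ones, but 21.8 to 25.2% and 16.1 to 21.3% in Cd47ΔT and Cd47f/f cDC2 libraries. The cDC2 Cd47f/f library 3 stood apart, with Pearson r across genes from 0.929 to 0.937 to the other cDC2 libraries. T cell and cDC2 libraries were made with different kits, so cell type and kit cannot be told apart in levels. The same holds where the genotype effect is compared between the cell types. In bulk samples, fewer cells of a type and less RNA per cell cannot be told apart either.

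Among the members, promoters of 8 were found in a RefSeq table (build GRCm38.p6) that holds 250 bases before to 50 bases after each gene's RefSeq start. The gene coordinates printed below come from another annotation, GENCODE M21, whose starts can differ. The windows of Lgals3 (47373610 to 47373909), Capg (72549397 to 72549696) and Anxa1 do not hold the starts printed below for these genes. Lgals1 and S100a10 had no entry. The windows of the S100 and annexin members are shown, so that S100a4, S100a6, S100a11, Anxa1 and Anxa2, which rose in T cells, can be read beside Anxa5, which did not pass the test. Capitals mark the letters TGANTCA (the AP-1 site), GGGCGG (the GC box) or TATAAA (the TATA box) on either strand, and none of the marked runs overlap.
S100a4 (chr3:90603520-90603819, plus strand): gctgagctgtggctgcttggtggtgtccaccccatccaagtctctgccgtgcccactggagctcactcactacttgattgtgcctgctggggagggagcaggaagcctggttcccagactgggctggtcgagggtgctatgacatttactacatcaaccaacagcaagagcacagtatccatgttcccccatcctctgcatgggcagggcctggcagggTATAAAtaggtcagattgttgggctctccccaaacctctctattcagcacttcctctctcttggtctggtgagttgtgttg
S100a6 (chr3:90612644-90612943, plus strand): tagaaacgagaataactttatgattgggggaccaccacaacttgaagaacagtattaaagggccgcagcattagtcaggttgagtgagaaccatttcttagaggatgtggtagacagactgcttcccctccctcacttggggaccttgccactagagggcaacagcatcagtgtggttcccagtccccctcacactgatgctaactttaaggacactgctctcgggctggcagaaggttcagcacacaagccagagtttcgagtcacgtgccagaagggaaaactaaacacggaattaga
S100a11 (chr3:93520246-93520545, plus strand): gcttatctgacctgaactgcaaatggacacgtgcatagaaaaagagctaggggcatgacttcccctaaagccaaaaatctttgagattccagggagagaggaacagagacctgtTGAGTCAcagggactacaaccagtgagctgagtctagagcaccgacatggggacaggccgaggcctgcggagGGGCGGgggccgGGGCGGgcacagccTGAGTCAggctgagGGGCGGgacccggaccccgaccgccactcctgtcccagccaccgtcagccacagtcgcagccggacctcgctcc
Anxa1 (chr19:20390622-20390921, minus strand): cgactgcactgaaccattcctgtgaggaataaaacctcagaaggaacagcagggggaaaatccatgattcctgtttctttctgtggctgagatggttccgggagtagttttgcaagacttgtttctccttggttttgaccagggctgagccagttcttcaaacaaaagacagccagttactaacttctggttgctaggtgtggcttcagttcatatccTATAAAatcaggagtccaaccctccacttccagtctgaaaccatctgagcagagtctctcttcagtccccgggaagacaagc
Anxa2 (chr9:69453433-69453732, plus strand): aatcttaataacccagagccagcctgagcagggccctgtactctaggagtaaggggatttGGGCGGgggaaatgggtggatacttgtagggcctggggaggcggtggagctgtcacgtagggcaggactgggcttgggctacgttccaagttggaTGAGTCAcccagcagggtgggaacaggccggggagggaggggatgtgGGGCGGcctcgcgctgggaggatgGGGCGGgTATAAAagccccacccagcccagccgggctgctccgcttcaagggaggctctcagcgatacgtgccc
Anxa5 (chr3:36475838-36476137, minus strand): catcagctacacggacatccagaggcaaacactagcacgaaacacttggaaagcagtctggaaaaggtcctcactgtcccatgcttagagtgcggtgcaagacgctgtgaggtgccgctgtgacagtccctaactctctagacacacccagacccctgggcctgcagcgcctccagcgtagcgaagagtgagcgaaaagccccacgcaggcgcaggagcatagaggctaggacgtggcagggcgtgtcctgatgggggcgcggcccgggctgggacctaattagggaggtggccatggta
TGANTCA lay in 2 of the 8 members' windows, S100a11 and Anxa2, and in 7.81% of all 32851 promoters of the table. TATAAA lay in 3 of the 8, S100a4, Anxa1 and Anxa2, against 13.6% of all promoters. In S100a4 it spanned positions -31 to -26 from the RefSeq start, in Anxa1 positions -32 to -27 and in Anxa2 positions -17 to -12. GGGCGG lay in 3 of the 8, Lgals3, S100a11 and Anxa2, against 35.7% of all promoters. The windows of S100a6, Anxa5 and Capg held none of the 3 strings. With 8 windows these shares are a description, and a match is neither a site nor a cause.

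In T cells, 9 of the 10 members rose in Cd47ΔT mice. The exception was Anxa5. S100a4, Lgals3, Anxa1 and S100a6 rose most on the log2 scale, and S100a10 and S100a11 rose least of the 9. Among all 12453 genes tested, 8.5% were called higher and 0.875% lower by limma at a Benjamini-Hochberg adjusted p under 0.05. The median log2 fold change on log2(TPM + 1) was 1.88 over the 10 members and 0.10 over all genes tested. All 10 members had non-overlapping genotypes with Cd47ΔT higher, which 37% of all genes tested also had. Together the members made up 0.354% and 0.334% of all TPM in Cd47ΔT T cells, against 0.132% and 0.139% in Cd47f/f T cells.

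**Figure D1:**
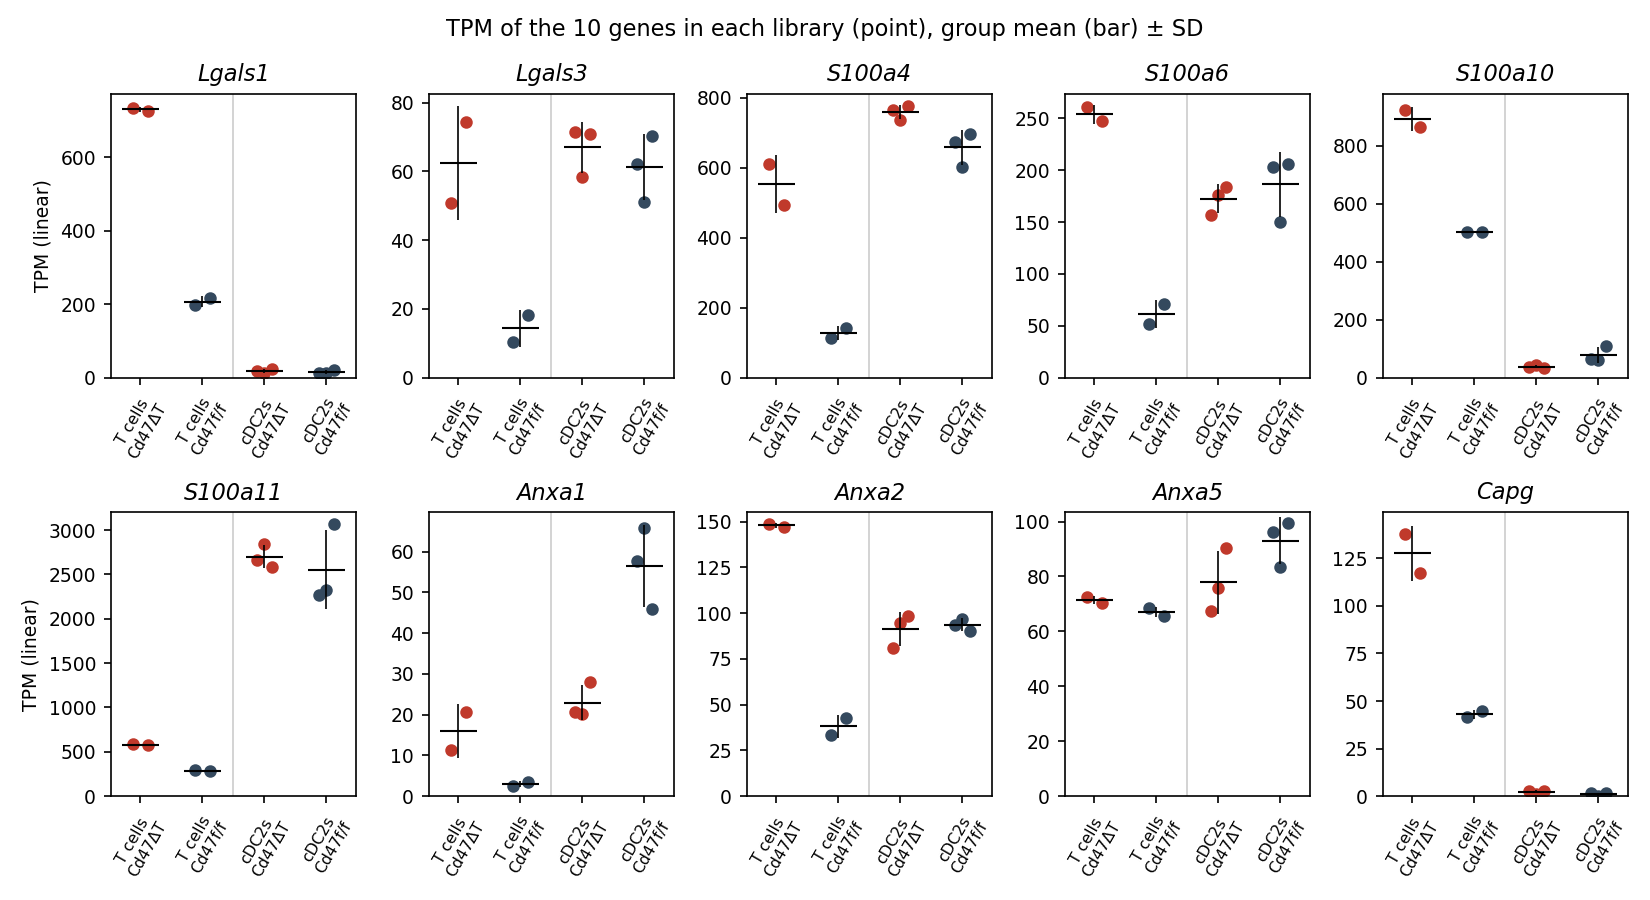
TPM of the 10 genes on linear axes that start at 0, 1 panel per gene, for T cells and cDC2s with Cd47ΔT left of Cd47f/f. Points are libraries, horizontal bars group means and vertical lines 1 SD. In T cells every Cd47ΔT point lies above both Cd47f/f points, for Anxa5 by a narrow gap (72.6 and 70.4 against 68.4 and 65.8 TPM), and in cDC2s only S100a4, S100a10 and Anxa1 separate.

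Lgals1 (ENSMUSG00000068220, chromosome 15, 78926725 to 78930465, plus strand, GRCm38) encodes galectin-1, which dampens T cell responses when it binds their surface glycans. It stood at 736 and 726 TPM in Cd47ΔT T cells, against 197 and 218 TPM in Cd47f/f T cells. The libraries of each genotype lay close together and far from the other genotype. Its log2 fold change was 1.81 ± 0.10 (SE), with a limma adjusted p of 0.00134, and the means were 731 ± 6.70 and 208 ± 15.2 TPM (SD, n = 2 each), a 3.52-fold difference. Lgals3 (ENSMUSG00000050335, chromosome 14, 47367751 to 47386160, plus strand) encodes galectin-3, the galectin with a long collagen-like tail that macrophages make in large amounts. It read 50.8 and 74.3 TPM in Cd47ΔT T cells, against 10.5 and 18.2 TPM in Cd47f/f T cells. Both Cd47ΔT libraries were higher, and the Cd47ΔT library 2 was the highest. The log2 fold change of Lgals3 was 2.07 ± 0.29 (limma adjusted p = 0.0128). Lgals1 was thus more abundant than Lgals3 in each T cell library, by 9.78-fold to 18.8-fold.

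S100a4 and S100a6 lie near each other in the S100 gene cluster, with S100a5 between them. S100a4 (ENSMUSG00000001020, chromosome 3, 90603771 to 90606045, plus strand), whose protein binds nonmuscle myosin and is known for a role in cell motility, was at 611 and 495 TPM in Cd47ΔT T cells, against 115 and 143 TPM in Cd47f/f T cells. Its log2 fold change of 2.09 ± 0.16 was the largest of the members (limma adjusted p = 0.00263). S100a6 (ENSMUSG00000001025, chromosome 3, 90612882 to 90624181, plus strand) encodes calcyclin, a partner of the CacyBP protein. It was at 260.4 and 248 TPM in Cd47ΔT T cells, against 51.8 and 70.6 TPM in Cd47f/f T cells. The genotypes stood apart by far more than the libraries within either of them, with a log2 fold change of 2.05 ± 0.16 (limma adjusted p = 0.00308). S100a4 exceeded S100a6 by a like factor in every T cell library, 2.35 and 1.998 in Cd47ΔT and 2.21 and 2.03 in Cd47f/f.

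The annotated gene between them, S100a5 (90608523 to 90611780), read 1.01 and 0.73 TPM in Cd47ΔT T cells and 0 in both Cd47f/f T cell libraries, so it did not pass the filter. On the other sides lie S100a3, between 0.13 and 1.22 TPM in T cells, and S100a7a, at 0.07 TPM or less in T cells. A high level was thus not shared by all neighbours in this stretch of chromosome 3. S100a11 and S100a10 form a second pair on the same chromosome, 2896306 bases from the end of S100a6 to the start of S100a11, with 28792 bases between them.

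S100a10 (ENSMUSG00000041959, chromosome 3, 93555080 to 93564643, plus strand) encodes p11, the S100 protein that joins annexin A2 in a complex at the membrane and, unlike most of the family, does not bind calcium. It was the most abundant member in each T cell library, with 924 and 865 TPM in Cd47ΔT T cells, against 502 and 503 TPM in Cd47f/f T cells. Its log2 fold change was 0.83 ± 0.0914 (limma adjusted p = 0.00724), a 1.78-fold difference in means. S100a11 (ENSMUSG00000027907, chromosome 3, 93520488 to 93526287, plus strand) encodes a partner of annexin A1. It read 585 and 573 TPM in Cd47ΔT T cells, against 294 and 283 TPM in Cd47f/f T cells. With 1.003 ± 0.0929 on the log2 scale (limma adjusted p = 0.00461), S100a11 differed 2.01-fold. Both genes separated cleanly by genotype, at smaller fold changes than S100a4 and S100a6.

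Anxa1 (ENSMUSG00000024659, chromosome 19, 20373428 to 20390944, minus strand) encodes annexin A1, a glucocorticoid-induced protein that acts through formyl peptide receptors. It was the least abundant member in T cells, at 11.4 and 20.6 TPM in Cd47ΔT, against 2.43 and 3.45 TPM in Cd47f/f. The Cd47ΔT libraries differed from each other more for this gene than for any other member, by 0.80 on the log2 scale. Its log2 fold change was 2.07 ± 0.32 (limma adjusted p = 0.0153), and the ratio of means was 5.44, the highest among the members. Without Cd47f/f library 1 the call for Anxa1 was lost (log2 1.88, limma adjusted p = 0.0678). Anxa2 (ENSMUSG00000032231, chromosome 9, 69453620 to 69491795, plus strand) encodes annexin A2, the S100A10 partner that gathers plasminogen and its activator at the cell surface. Anxa2 read 149 and 147 TPM in Cd47ΔT T cells, against 33.6 and 42.7 TPM in Cd47f/f T cells. Neither Cd47ΔT library came near the Cd47f/f values, and the log2 fold change was 1.94 ± 0.15 (limma adjusted p = 0.00303).

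As Anxa2 rose more than S100a10, the ratio of S100a10 to Anxa2 TPM was 6.20 and 5.89 in Cd47ΔT T cells, against 14.9 and 11.8 in Cd47f/f T cells. The partner pair S100a11 and Anxa1 had ratios of 51.4 and 27.8 in Cd47ΔT T cells, against 121 and 82.1 in Cd47f/f T cells. In both pairs the annexin gained on its S100 partner at the RNA level, without overlap between the genotypes. These ratios follow from the fold changes given above and were given no test of their own. How often ratios of other gene pairs separate the genotypes was not computed.

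Anxa5 (ENSMUSG00000027712, chromosome 3, 36448923 to 36475894, minus strand) encodes annexin A5, which binds phosphatidylserine and is widely used to detect dying cells. Its 72.6 and 70.4 TPM in Cd47ΔT T cells stood beside 68.4 and 65.8 TPM in Cd47f/f T cells. The log2 fold change was 0.0905 ± 0.12, with a 95% interval from -0.198 to 0.379 (limma adjusted p = 0.787), and its sign turned to -0.0328 under quantile scaling and to -0.0637 under median-of-ratios scaling. This interval lies wholly below those of the 9 members that rose. Capg (ENSMUSG00000056737, chromosome 6, 72544391 to 72562983, plus strand) encodes the actin-capping protein and was at 138 and 117 TPM in Cd47ΔT T cells, against 41.5 and 44.8 TPM in Cd47f/f T cells. The genotypes did not overlap, and the log2 fold change of Capg was 1.54 ± 0.14 (limma adjusted p = 0.00440).

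Calls in T cells rested on the filter of 1 TPM in at least 2 libraries. With no filter, which takes in every gene above 0 TPM in at least 1 of the libraries, Lgals1 kept its call (limma adjusted p = 0.0408) and the other 8 had adjusted p from 0.0608 to 0.0942, at the same fold changes. The 15 genes of the lists below that are not members and were called in T cells also lost their calls with no filter (limma adjusted p 0.0693 to 0.148).

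Markers of other cell types moved with genotype in the same T cell libraries. The 8 T cell markers gave 0 calls by limma (1 higher and 1 lower at an unadjusted p under 0.05), and their summed level was 4815 and 4361 TPM in Cd47ΔT, against 4611 and 4691 TPM in Cd47f/f. Of 69 markers in 11 lists of other cell types, 52 could be tested, 45 were called higher and 0 lower, and 12 of the 52 had passed the filter through Cd47ΔT libraries alone. Of the other 40, 34 were called higher. The summed level of every one of these lists was higher in Cd47ΔT without overlap, among them macrophage markers at 139.7 and 225 TPM in Cd47ΔT against 16.7 and 22.0 TPM in Cd47f/f. Monocyte markers summed to 1969 and 2190 TPM in Cd47ΔT against 629 and 810.2 TPM in Cd47f/f, most of it Ly6c2, which T cells also express. All 6 monocyte markers were called higher, with log2 fold changes from 1.38 (Ly6c2) to 3.06 (Lyz2). Neutrophil markers summed to 23.45 and 79.65 TPM in Cd47ΔT against 2.08 and 4.72 TPM in Cd47f/f, with Ly6g at 0 in all. Of them S100a9 and Csf3r were called higher, and Csf3r had passed the filter through Cd47ΔT libraries alone. The cDC2 markers summed to 47.1 and 72.9 TPM in Cd47ΔT against 9.66 and 14.6 TPM in Cd47f/f. Cycling-cell genes, all 6 of 6 called higher, summed to 379 and 345 TPM in Cd47ΔT against 68.0 and 97.9 TPM in Cd47f/f. The part of these in the members' change was not tested.

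All 11 sums were higher in Cd47ΔT T cell library 2 than in library 1, by a factor of 1.095 (plasma cells) to 3.40 (neutrophils). Of the members, Lgals3 was 0.54 and Anxa1 0.80 higher in library 2 on the log2 scale. The other 8 members were between 0.0187 and 0.31 lower in library 2, with S100a4 the farthest down and Capg next at 0.23. Cycling-cell genes were higher in library 2 in 2 of 6 cases, with a median difference of -0.15, and T cell markers in 0 of 8. Between the Cd47f/f T cell libraries, S100a11 (-0.0521) and Anxa5 (-0.0558) were lower in library 2. The other members were higher in it, from 0.0027 (S100a10) to 0.74 (Lgals3). Macrophage markers were all higher in it, from 0.0143 (C1qb) to 0.80 (Spic), as were cycling-cell genes, from 0.0119 (Cdk1) to 0.96 (Mki67). Of the 11 sums, those of plasmacytoid dendritic cells and erythroid cells were lower in it and the others higher. What ties the members to these markers was not tested.

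**Figure D2:**
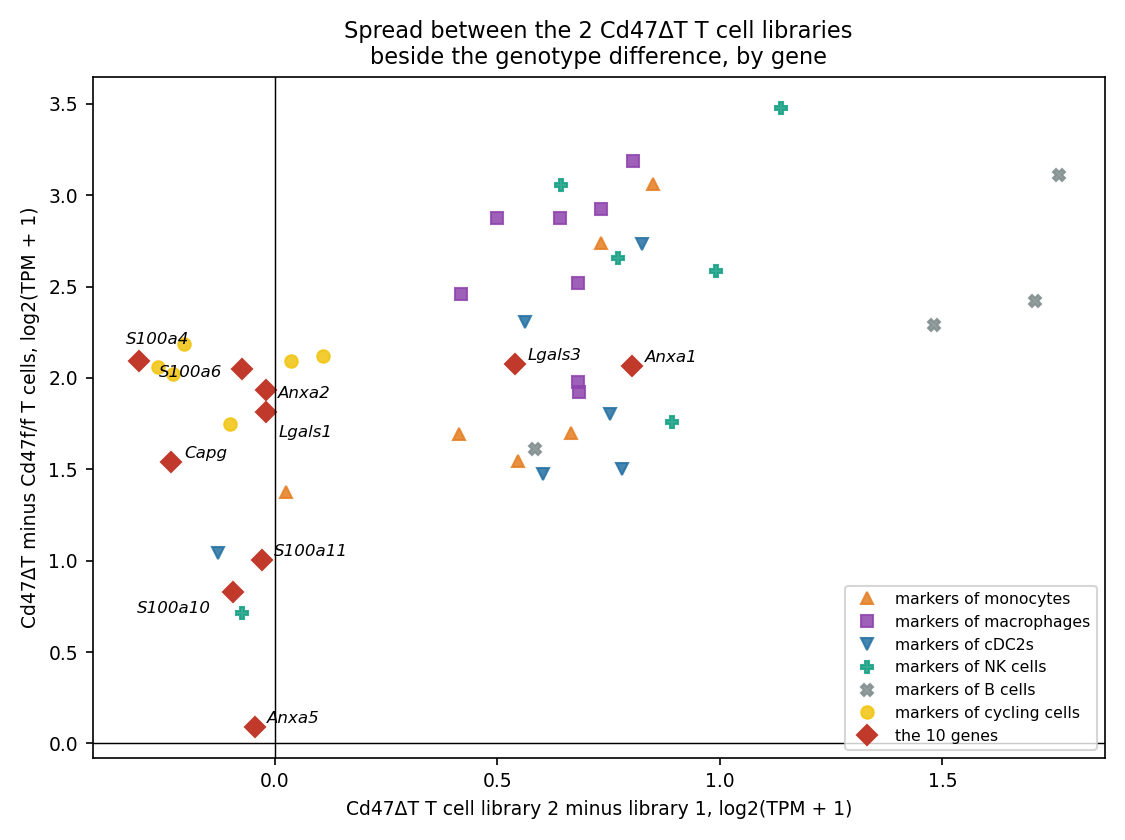
Genotype difference Cd47ΔT minus Cd47f/f in T cells (vertical axis) against the difference between Cd47ΔT T cell libraries 2 and 1 (horizontal axis), both in log2(TPM + 1), 1 symbol per tested gene. Diamonds are the 10 genes and the other symbols markers of monocytes, macrophages, cDC2s, NK cells, B cells and cycling cells. All 8 macrophage markers lie right of 0 on the horizontal axis, from 0.42 to 0.80, while 8 of the 10 genes lie left of it and Lgals3 and Anxa1 lie right. The difference between the Cd47f/f T cell libraries is not drawn.

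The families around the members were described from lists, with the members counted in. Of the galectin list, 3 of the 7 tested genes rose in T cells and none fell. Beside Lgals1 and Lgals3 this was Lgals3bp, the galectin-3-binding glycoprotein, at 132 and 137 TPM in Cd47ΔT T cells, against 88.1 and 93.0 TPM in Cd47f/f T cells (log2 fold change 0.57, limma adjusted p = 0.0303). The call for Lgals3bp held in 8 of 13 alternatives. It was lost under median-of-ratios scaling (limma adjusted p = 0.0708) and with no variance trend (0.0877). It was also lost without either Cd47ΔT library (log2 fold change 0.60 and 0.54). The 4 others had log2 fold changes from -0.11 to 0.80. The list's median was 0.57, beside 0.10 over all genes tested.

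Of the S100 list, 6 of 9 tested genes rose in T cells, with a median log2 fold change of 1.54. The 2 that are not members were S100a1 and S100a9, named here after their values were seen. S100a1 read 5.68 and 6.16 TPM in Cd47ΔT T cells, against 1.19 and 1.60 TPM in Cd47f/f T cells. S100a9, whose protein is a subunit of calprotectin and a neutrophil marker, read 13.7 and 43.6 TPM in Cd47ΔT T cells, against 1.11 and 2.32 TPM in Cd47f/f T cells. S100a9 had the largest log2 fold change of the list, 3.27 (limma adjusted p = 0.0173, lost at 0.0851 without Cd47f/f library 1), and unlike the S100 members it differed widely between the Cd47ΔT libraries.

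Of the annexin list, 8 genes were tested in T cells. Anxa1, Anxa2, Anxa3 and Anxa4 rose, and Anxa3 had passed the filter through the Cd47ΔT libraries alone. Of the other 7, 3 rose, with a median log2 fold change of 0.36. Anxa4 read 5.67 and 5.62 TPM in Cd47ΔT T cells, against 1.37 and 1.97 TPM in Cd47f/f T cells, a log2 fold change of 1.32 (limma adjusted p = 0.0209). Anxa3 read 1.77 and 2.93 TPM in Cd47ΔT T cells, against 0.31 and 0.33 TPM in Cd47f/f T cells. Its call was lost under quantile scaling (limma adjusted p = 0.114). Without Cd47f/f library 1 the calls for Anxa4 (adjusted p = 0.0572) and Anxa3 (0.101) were lost, and that for Anxa3 also without Cd47f/f library 2 (0.0730). Anxa5 stood with Anxa6, Anxa7 and Anxa11 among the 4 that did not pass the test, all of them with positive log2 fold changes of at most 0.36.

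Of the gelsolin and actin-capping list, 2 of 10 tested genes rose in T cells, Capg and Vill, which encodes a villin-like protein. Vill stood at 7.52 and 7.26 TPM in Cd47ΔT T cells, against 1.68 and 1.76 TPM in Cd47f/f T cells (log2 fold change 1.62, limma adjusted p = 0.0101). The other 8, the capping protein subunits, cofilin and profilin among them, did not pass the test. The list's median was 0.19, near that of all genes tested.

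Of the partner and receptor list, 16 genes were tested in T cells, of which 5 (Fpr1, Fpr2, Tlr4, Havcr2 and Pla2g4a) had passed the filter through the Cd47ΔT libraries alone and so had to lie higher there. Of the other 11, 2 rose, Lag3 and Lgals3bp, with a median log2 fold change of 0.47 over the 11. Lag3, which encodes an inhibitory receptor that binds galectin-3, stood at 25.8 and 15.1 TPM in Cd47ΔT T cells, against 4.49 and 4.72 TPM in Cd47f/f T cells (log2 fold change 1.89, limma adjusted p = 0.0136). Fpr1 and Fpr2, the formyl peptide receptor genes, read at most 3.30 TPM in any T cell library, and Havcr2, the gene of the TIM-3 receptor, at most 3.90 TPM. Fpr1, Fpr2 and Havcr2 passed the test, while Tlr4 and Pla2g4a did not. The call for Fpr2 was lost under quantile scaling (limma adjusted p = 0.0889). Without Cd47f/f library 1 the calls for Lag3, Fpr1, Havcr2 and Fpr2 were lost (adjusted p 0.0600 to 0.0754), and that for Fpr2 also without Cd47f/f library 2 (0.0599). Ahnak, whose large protein binds the annexin A2 and S100A10 complex, read 51.2 and 58.2 TPM in Cd47ΔT T cells against 8.74 and 28.4 TPM in Cd47f/f T cells, and did not pass the test (limma adjusted p = 0.0825). It passed without Cd47ΔT library 1 or either Cd47f/f library (adjusted p 0.00698 to 0.0355), with log2 fold changes from 0.92 to 2.51. Ahnak was named after its values were seen.

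Of the cytoskeletal list, 5 of 20 tested genes rose in T cells, with a median of 0.31. Vim, the vimentin gene, was at 699 and 705 TPM in Cd47ΔT T cells, against 289 and 359.7 TPM in Cd47f/f T cells (log2 fold change 1.12, limma adjusted p = 0.00773). Crip1 was at 1175 and 1159 TPM in Cd47ΔT T cells, against 632 and 690.0 TPM in Cd47f/f T cells (log2 fold change 0.82, limma adjusted p = 0.00773). Cd44, the hyaluronan receptor that rises on antigen-experienced T cells, and Myo1f, an unconventional myosin gene, had log2 fold changes of 1.20 and 1.32 (limma adjusted p = 0.0191 and 0.0258). The fifth gene was Lmna, the lamin A gene, at 1.06 (limma adjusted p = 0.0431, kept in 5 of 13 alternatives and lost at 0.0841 to 0.189 without Cd47f/f library 1 or either Cd47ΔT library).

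**Figure D3:**
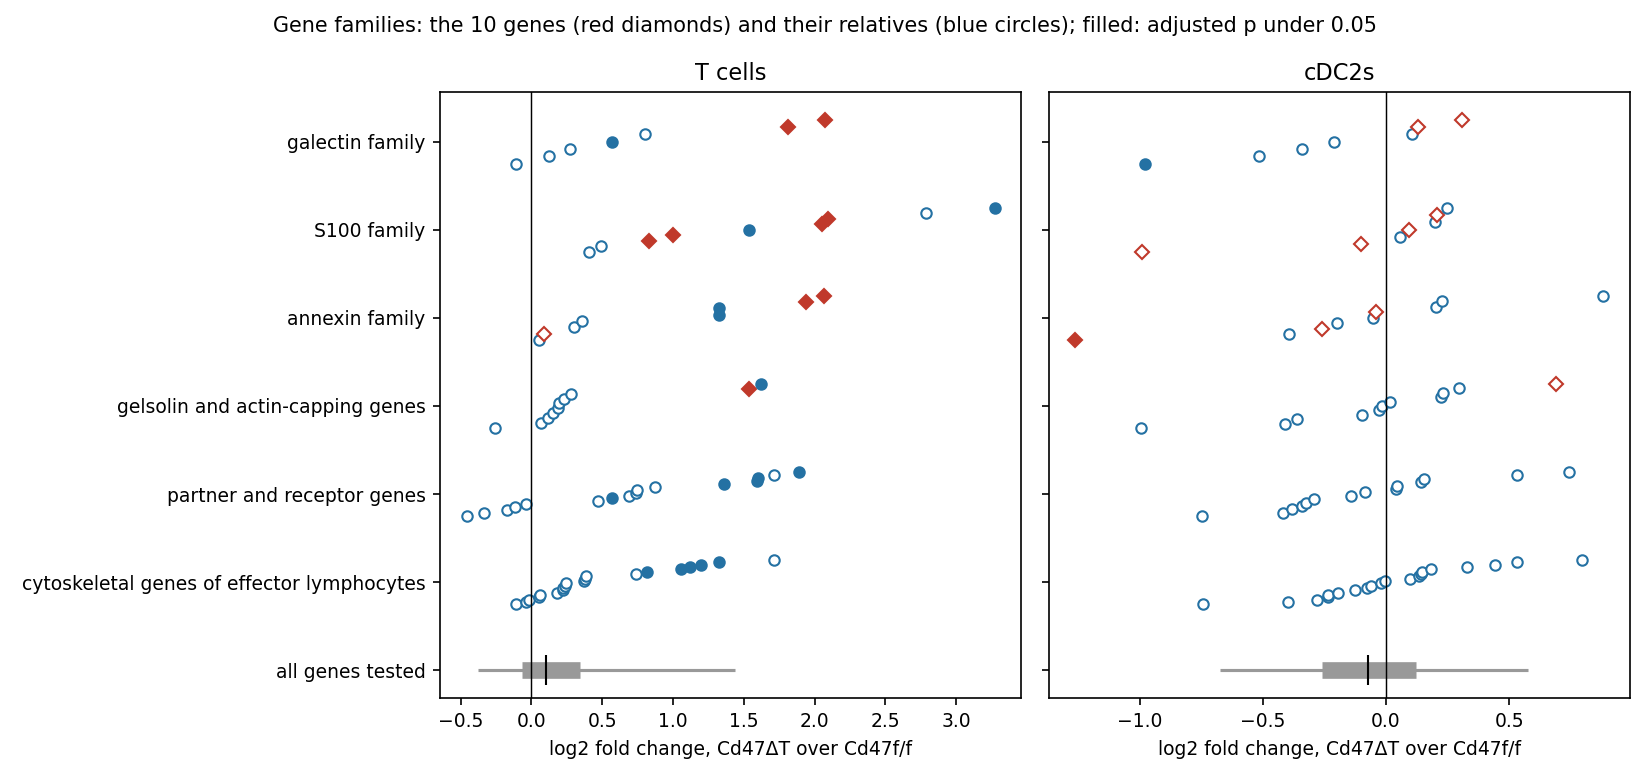
Log2 fold change of Cd47ΔT over Cd47f/f for every tested gene of the 6 lists, T cells left and cDC2s right, with the members as diamonds and the other genes as circles, filled where the limma adjusted p was under 0.05. The grey bar of all genes tested spans the 25th to 75th percentile, its thin line the 5th to 95th and the tick marks the median, and the filled symbols in T cells all lie right of 0.

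In cDC2s, 1 of the 10 members passed the test. Anxa1 fell, to 20.8, 20.1 and 28.0 TPM in Cd47ΔT cDC2s, against 57.7, 65.9 and 45.9 TPM in Cd47f/f cDC2s. Its genotypes did not overlap. The log2 fold change was -1.26 ± 0.18 (limma adjusted p = 0.0343) and the ratio of means 0.407. Of all 12058 genes tested in cDC2s, 0.381% were called lower and 0.249% higher. The call for Anxa1 was lost without any single one of the 6 libraries (adjusted p 0.0586 to 0.144) and held in 3 of 15 alternatives, while the log2 fold change stayed between -1.41 and -1.13.

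S100a10 read 36.8, 43.2 and 32.8 TPM in Cd47ΔT cDC2s, against 64.2, 61.0 and 109 TPM in Cd47f/f cDC2s. The genotypes did not overlap, and the highest value came from Cd47f/f library 3, the one that stood apart. The log2 fold change was -0.99 ± 0.23 (unadjusted p = 0.00251, limma adjusted p = 0.117), and -0.73 without that library. S100a4 was the third member without overlap, at 765, 738 and 776 TPM in Cd47ΔT cDC2s, against 675, 603 and 696 TPM in Cd47f/f cDC2s. This difference was small, 0.21 ± 0.0878 on the log2 scale (unadjusted p = 0.0458, limma adjusted p = 0.360). Non-overlap with Cd47ΔT lower held for 13.5% of all genes tested in cDC2s, and with Cd47ΔT higher for 6.38%.

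The other 7 members overlapped between the genotypes in cDC2s. S100a11, the most abundant member there, read 2663, 2842 and 2588 TPM in Cd47ΔT cDC2s, against 2264, 2326 and 3064 TPM in Cd47f/f cDC2s. Its interval on the log2 scale ran from -0.212 to 0.399 (limma adjusted p = 0.813). Anxa2 read 80.8, 94.4 and 98.3 TPM in Cd47ΔT cDC2s, against 93.6, 97.0 and 90.0 TPM in Cd47f/f cDC2s, with an interval from -0.290 to 0.206 around a value whose sign turned with the scaling. S100a6 stood at 157, 176 and 184 TPM in Cd47ΔT cDC2s, against 203, 150.5 and 206 TPM in Cd47f/f cDC2s. Its interval was -0.426 to 0.222. For these genes a change of the size seen in T cells lay outside the interval.

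Lgals3 read 71.6, 58.3 and 71.0 TPM in Cd47ΔT cDC2s, against 62.3, 51.2 and 70.4 TPM in Cd47f/f cDC2s, with an interval from -0.213 to 0.474. Anxa5 read 67.4, 75.8 and 90.3 TPM in Cd47ΔT cDC2s, against 96.3, 83.3 and 99.6 TPM in Cd47f/f cDC2s (log2 fold change -0.26, limma adjusted p = 0.462). Both overlapped widely. Lgals1, at 18.6, 14.1 and 24.6 TPM in Cd47ΔT cDC2s against 12.4, 12.7 and 20.6 TPM in Cd47f/f cDC2s, had an interval from -0.301 to 0.922. Capg, at 2.98, 1.33 and 2.61 TPM in Cd47ΔT cDC2s against 1.48, 0.22 and 1.64 TPM in Cd47f/f cDC2s, had an interval from -0.249 to 1.63. Those of Lgals1 and Capg are wide, and for Capg a change as large as in T cells lay within it.

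Over the 10 members the median log2 fold change in cDC2s was 0.0257, beside -0.0729 over all genes tested. Together they took 0.388% to 0.406% of TPM in Cd47ΔT cDC2s and 0.345% to 0.440% in Cd47f/f cDC2s. The ratio of S100a10 to Anxa2 was 0.456, 0.457 and 0.334 in Cd47ΔT cDC2s, against 0.686, 0.629 and 1.21 in Cd47f/f cDC2s, again without overlap and without a test. That of S100a11 to Anxa1 was 128, 141 and 92.3 in Cd47ΔT cDC2s, against 39.2, 35.3 and 66.7 in Cd47f/f cDC2s. The first ratio was lower in Cd47ΔT in both cell types, while the ratio of S100a11 to Anxa1 was lower in T cells and higher in cDC2s. Other gene pairs were not compared here either.

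In the family lists, limma called few genes in cDC2s. Of the galectin list, 1 of 7 fell, Lgals9, the gene of the TIM-3 ligand galectin-9, at 20.9, 20.8 and 19.3 TPM in Cd47ΔT cDC2s against 42.0, 37.1 and 44.1 TPM in Cd47f/f cDC2s (log2 fold change -0.98, limma adjusted p = 0.0250). The call for Lgals9 was lost without any single one of the 6 libraries (adjusted p up to 0.112). Of the annexin list, Anxa1 alone of 9 passed. The S100 list had 0 calls of 7 (1 higher and 1 lower at an unadjusted p under 0.05), and the gelsolin list 0 of 11 (0 higher and 2 lower). The partner list had 0 of 14 (1 higher and 2 lower) and the cytoskeletal list 0 of 20 (2 higher and 2 lower).

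Some marker levels also differed between the genotypes in the cDC2 libraries. Over all genes tested there, 13.5% lay lower and 6.38% higher in Cd47ΔT without overlap. The 8 cDC2 markers were all at 1 TPM or more in every cDC2 library and summed to 1129 to 1231 TPM in Cd47ΔT, against 1416 to 1568 TPM in Cd47f/f, with Itgam and Cd209a called lower. Of monocyte and macrophage markers none of the 13 tested was called (0 higher and 2 lower at an unadjusted p under 0.05). Over all 12 lists of markers other than those of cDC2s, 1 of 41 tested genes was called, Car2 of the erythroid list, which was higher (log2 fold change 1.57, limma adjusted p = 0.0411). Leaving out Cd47ΔT library 1, Cd47ΔT library 3 or Cd47f/f library 1 left 0 genes called in cDC2s. The calls for Itgam, Cd209a and Car2 were thus lost in each of those fits. The summed levels of 8 of the 12 lists overlapped between the genotypes. Among these were the cDC1 markers, at 960 to 1186 TPM in Cd47ΔT cDC2s and 1083 to 1309 TPM in Cd47f/f cDC2s. Of the 5 cDC1 markers, 4 were at 1 TPM or more in every cDC2 library. Cycling-cell genes summed to 415 to 481 TPM in Cd47ΔT cDC2s, against 350 to 385 TPM in Cd47f/f cDC2s. The NK cell sum, nearly all of it Klri2, was 26.7 to 31.4 TPM in Cd47ΔT cDC2s, against 16.1 to 19.2 TPM in Cd47f/f cDC2s. Lower sums without overlap were those of neutrophil markers, most of it Mmp9, at 28.5 to 45.0 TPM in Cd47ΔT cDC2s against 49.8 to 73.3 TPM in Cd47f/f cDC2s, and of plasma cell markers, at 2.66 to 5.36 TPM in Cd47ΔT cDC2s against 7.69 to 12.3 TPM in Cd47f/f cDC2s. T cell markers summed to 18.3 to 22.8 TPM in Cd47ΔT and 14.9 to 19.9 TPM in Cd47f/f cDC2s, and Cd5 was the one T cell marker to pass the filter. S100a8, S100a9 and Ly6g were at 0 in all cDC2 libraries. The part of the marker differences in the fall of Anxa1 was not tested.

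**Figure D4:**
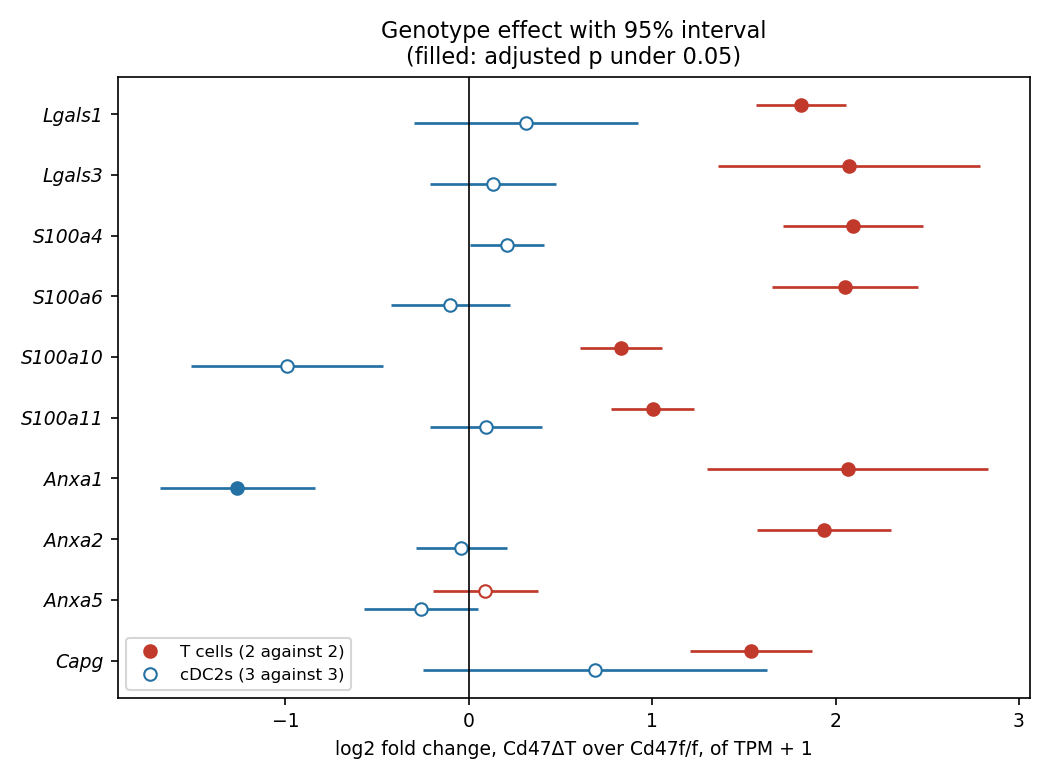
Log2 fold change of Cd47ΔT over Cd47f/f with its 95% interval for each member, T cells above cDC2s, filled where the limma adjusted p was under 0.05. In T cells all intervals but that of Anxa5 lie wholly right of 0, and in cDC2s Anxa1 (-1.26) is the one filled point.

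The genotype effect differed between the cell types for 8 of the 10 members by limma's interaction test, in each case with the higher effect in T cells. Of all 10650 genes that passed both filters, 5.4% were called in that direction and 0.3% in the other. The kit differs along with the cell type, so the 2 cannot be told apart in these differences. Anxa1 had the largest difference, 3.33 ± 0.37 on the log2 scale (limma adjusted p = 0.000350), since it rose in T cells and fell in cDC2s. S100a6 differed by 2.15 ± 0.24 (limma adjusted p = 0.000319), Anxa2 by 1.98 ± 0.19 (0.000159) and S100a4 by 1.89 ± 0.18 (0.000132). For Lgals3 the difference was 1.94 ± 0.33 (limma adjusted p = 0.00467), and for S100a10 1.82 ± 0.30 (0.00386). S100a11 differed by 0.91 ± 0.18 (limma adjusted p = 0.00922, lost at 0.104 under median-of-ratios scaling and at 0.0515 with no variance trend).

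Lgals1 differed between the cell types by 1.50 ± 0.34 (limma adjusted p = 0.0213). This call was lost without any single one of the 4 T cell libraries (adjusted p 0.0599 to 0.128) and under 7 of 19 alternatives in all. Capg differed by 0.85 ± 0.48 (limma adjusted p = 0.464), with an interval from -0.194 to 1.89, and was called at a pseudocount of 5 (adjusted p = 0.0126). Anxa5 differed by 0.35 ± 0.20 (limma adjusted p = 0.483, interval -0.0947 to 0.798). The median difference was 1.85 over the members and 0.19 over all genes tested.

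The order of levels within a group can be read from TPM, which are per length. In Cd47ΔT T cells it ran S100a10, Lgals1, S100a11, S100a4, S100a6, Anxa2, Capg, Anxa5, Lgals3 and Anxa1. S100a11 and S100a4 overlapped there, as did Anxa5 and Lgals3. In Cd47f/f T cells it ran S100a10, S100a11, Lgals1, S100a4, Anxa5, S100a6, Capg, Anxa2, Lgals3 and Anxa1, and Anxa5 overlapped S100a6 and Capg overlapped Anxa2. Anxa5 was thus the eighth member by level in Cd47ΔT T cells and the fifth in Cd47f/f T cells, at 71.5 ± 1.58 and 67.1 ± 1.86 TPM (mean ± SD, n = 2 each).

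In Cd47ΔT cDC2s the order was S100a11, S100a4, S100a6, Anxa2, Anxa5, Lgals3, S100a10, Anxa1, Lgals1 and Capg. Anxa2 overlapped Anxa5, Anxa5 overlapped Lgals3 and Anxa1 overlapped Lgals1. In Cd47f/f cDC2s the same order held but for S100a10, which stood above Lgals3, and neighbours from Anxa2 down to Anxa1 overlapped. S100 genes made up 90.8% to 93.5% of the members' TPM in cDC2 libraries and 65.4% to 73.1% in T cell libraries. S100a11 headed the cDC2 order and S100a10 the T cell order in every library, across kits that differ.

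Likeness of pattern was measured as the root mean square difference of log2(TPM + 1), centred within each cell type, over the 10 libraries and 10650 genes. Among the members the closest were S100a6 and Anxa2 (0.145), S100a4 and S100a6 (0.160) and S100a4 and Anxa2 (0.161), and the farthest Anxa1 and Capg (0.910). The genes nearest to S100a4 were Nusap1 (0.0988), Spc24 (0.121) and Kif11 (0.124), which encode proteins of the mitotic spindle and kinetochore. Nusap1 read 29.5 and 25.1 TPM in Cd47ΔT T cells, against 5.02 and 6.95 TPM in Cd47f/f T cells. Those nearest to S100a6 were Coro2a (0.104), Irf5 (0.125) and Anxa2. Lgals3 lay nearest to Cfp (0.149), Fgr (0.157) and Osbpl3 (0.161), of which Cfp encodes the complement protein properdin and Fgr a Src-family kinase of myeloid cells. Anxa1 lay nearest to Tifab (0.215), Tgfbi (0.268) and Lmo2 (0.288). Tifab read 4.92 and 8.45 TPM in Cd47ΔT T cells, against 0.71 and 1.19 TPM in Cd47f/f T cells, and 36.6, 39.9 and 36.8 TPM in Cd47ΔT cDC2s, against 87.3, 75.2 and 84.3 TPM in Cd47f/f cDC2s. Like Anxa1, Tifab was higher in Cd47ΔT T cells and lower in Cd47ΔT cDC2s, a likeness for which it was picked from these same libraries. For the other members that rose, the nearest gene was Bub1 (0.172) for Lgals1, Dtl (0.0595) for Anxa2 and Kif4 (0.229) for Capg. It was Rsad2 (0.171) for S100a10 and Atpif1 (0.0738) for S100a11. Cdk1, of the cycling-cell list, came next for Lgals1 (0.18), so such genes did not lie near S100a4 alone. These distances are a description without a test.

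How reads were split between the members and copies or overlapping genes is uncertain, since the table holds the levels left after reads were assigned. The pseudogenes of Lgals1 and S100a11 read at most 0.18 TPM, and genes that overlap S100a4, Anxa1, Anxa2 or Anxa5 at most 0.81 TPM, that maximum being Gm16144, antisense to Anxa2. Gm42674, which overlaps S100a4 on the same strand by 2115 bases, and 1500015L24Rik, which lies opposite Anxa1 over 17517 bases, were listed at 0 in every library. Whether reads were counted by strand is not stated in the sources used here.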

How the data were processed

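The authors deposited 1 table of TPM, a value per gene and library, each library summing to 1000000 within rounding. STAR, RSEM, DESeq2 and the GRCm38 build are named, per the submitters' processing notes, with no versions. Per the labels' protocols, T cell libraries used RNeasy mini and TruSeq stranded mRNA kits and cDC2 libraries RNeasy micro and SMART-seq stranded kits. GENCODE M21 (GRCm38) gave symbols for 45143 of 45706 identifiers. Tests covered genes that reached 1 TPM in 2 T cell or 3 cDC2 libraries and used log2(TPM + 1), with the fold change understating low genes, with limma 3.58.1 (lmFit, eBayes with trend) in R 4.3.3, per cell type, and as an interaction over genes past both filters. p-values were adjusted by Benjamini-Hochberg over all genes tested, and called under 0.05. The steps were tested on simulated data.

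The members and the lists were chosen with earlier results of these data known. Named genes were the members, up to 4 genes past the test per list and cell type by smallest p, and the 3 nearest genes of the 4 members with the largest T cell log2 fold change. Further list genes, Lmna, S100a1, S100a9 and Ahnak among them, were named outside this rule after their values were seen. So were genes nearest to the other members that rose. Tried as alternatives were a pseudocount of 0.1 or 5, a filter of 5 TPM or none, scaling by quantiles, median of ratios or protein-coding genes, no variance trend, a replicate block and leaving out each library. Where 1 library is left in a group, it is assumed to vary like the others. Figures were drawn with matplotlib 3.10.9 in Python 3.11.15, from tables made with pandas 2.3.3 and numpy 2.4.6.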

Additional observations from a re-analysis of the deposited data

Results flagged for a closer look

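Among the members and the genes named from the lists, these were singled out because the genotype effect differed between T cells and cDC2s by limma's interaction test (adjusted p under 0.05). Differences are the T cell effect minus the cDC2 effect on the log2 scale. Cell type and kit cannot be told apart in them.

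The members were Anxa1 (3.33), S100a6 (2.15), Anxa2 (1.98), Lgals3 (1.94), S100a4 (1.89), S100a10 (1.82), Lgals1 (1.50) and S100a11 (0.91). S100a10 and Anxa1 had log2 fold changes of 0.83 and 2.07 in T cells and of -0.99 and -1.26 in cDC2s, so they pointed in opposite directions, although S100a10 did not pass the test in cDC2s.

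Of the galectin list, Lgals9 (1.10) and Lgals3bp (0.91) differed as well. Lgals9 was called in cDC2s and not in T cells, where it read 164 and 161 TPM in Cd47ΔT and 147 and 152 TPM in Cd47f/f. Of the annexins, Anxa4 (1.12) and Anxa6 (0.75) differed. Anxa6 passed the test in neither cell type alone, with log2 fold changes of 0.36 in T cells and -0.39 in cDC2s. It passed in T cells without Cd47f/f library 2 (0.51, adjusted p = 0.0228). The call for Anxa4 was lost without any of 7 libraries taken singly (adjusted p 0.0653 to 0.141), and that for Lgals3bp without Cd47ΔT T cell library 2 (0.0682). Of the remaining lists, Vill (2.04), Havcr2 (2.01), Cd44 (1.60), Myo1f (1.40) and Lsp1 (0.58) differed, Vill no longer without Cd47f/f T cell library 1 (0.0513). The difference of Anxa6 was lost in 13 of 19 alternatives (limma adjusted p = 0.163 under median-of-ratios scaling). That of Anxa4 was lost in 11 of 19, and that of Lsp1 in 9 of 19 (up to 0.246). Havcr2 had passed the T cell filter through the Cd47ΔT libraries alone. With 2 or 3 libraries in a group, no gap test for a single outlying value was run.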

How the results depend on the processing

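Over all alternatives, 119 of 130 values of the members in T cells kept their direction and call, as did 133 of 149 in cDC2s and 179 of 189 for the interaction. The cDC2 values came mostly from members that were never called there. Anxa1, the only member called in cDC2s, lost its call in 12 of 15 alternatives. Counts of calls moved more. With no filter, the count in T cells was 1 member higher, with 14 genes higher and 1 lower in all, and in cDC2s 0 members lower, with 2 genes higher and 4 lower. A filter of 5 TPM gave 679 genes higher in T cells, and 375 higher and 20 lower for the interaction. Quantile scaling gave 655 higher and 336 lower in T cells, 0 members lower in cDC2s, and 307 higher and 76 lower for the interaction. Median-of-ratios scaling gave 264 lower in T cells, 0 members lower in cDC2s and 83 lower for the interaction. Protein-coding scaling gave 0 members lower in cDC2s. No variance trend gave 0 members lower in cDC2s, with 7 genes higher and 5 lower. The T cell median of all genes moved from 0.10 to -0.0812 under quantile and -0.0408 under median-of-ratios scaling, and that of the members from 1.88 to 1.725 and 1.72. The cause of these moves was not tested.

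In T cells, libraries with the same number had r = 0.19 in both pairs, and crossed ones -0.19. With 2 libraries per genotype these are 1 value up to sign, which cannot decide on pairing. In cDC2s, libraries with the same number did not deviate together in every pair (r = -0.0438, 0.0591 and 0.119). The numbers were therefore not taken to pair the samples. Not every cDC2 library correlated best with its own number. With the replicate block, 9 members rose in T cells, with 1986 genes higher and 310 lower. That fit had 1 residual degree of freedom and an infinite prior one, so its p-values take every gene's spread from the trend. It also called Ahnak (1.72), Anxa6 (0.36, adjusted p = 0.0206) and Lsp1 (0.38, adjusted p = 0.00481) in T cells, and Vim for the interaction (0.68, adjusted p = 0.0353). In cDC2s the replicate block gave 0 members lower, with 3 genes higher and 1 lower.

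Leaving out 1 library gave 8 to 9 members and 585 to 1439 genes higher in T cells (585 without Cd47f/f library 1), and 51 to 140 lower (51 and 57 without Cd47ΔT library 1 or 2). In cDC2s it gave 0 members lower, 0 to 9 genes higher and 0 to 5 lower. For the interaction it gave 7 to 8 members, 291 to 590 genes higher and 11 to 39 lower, with fewest without Cd47ΔT T cell library 2.

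Values that changed sign were all uncalled. They were Anxa5 in T cells (-0.0328 under quantile and -0.0637 under median-of-ratios scaling), Lgals9 in T cells (-0.0308 under median-of-ratios scaling) and Myo1f in cDC2s (0.00357 under the same). Anxa2 in cDC2s turned to 0.0169, 0.0380 and 0.0246 under quantile, median-of-ratios and protein-coding scaling and 0.0420 without Cd47ΔT library 1, in a range from -0.0980 over left-out libraries. S100a1 in cDC2s turned to -0.0743 without Cd47ΔT library 2 and to -0.27 without Cd47f/f library 2, in a range up to 0.79. For the interaction, Anxa3 turned to -0.35 at a pseudocount of 5 and -0.27 under quantile scaling. Crip1 turned to -0.22, -0.21 and -0.0846 under quantile, median-of-ratios and protein-coding scaling, and ranged from -0.34 to 0.31 with a library left out. Depth is unknown, so what it limits cannot be given.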
